A study of Homo sapiens with 8 samples.

Results

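Overexpression of full-length SLNCR1 was compared with empty vector in A375, an established cell line from a human malignant melanoma in which the BRAF kinase is mutated to an active form. The comparison takes 4 of the 8 samples of the study, 2 transfected with pcDNA3.1(-) carrying SLNCR1 and 2 with the empty plasmid. The other samples received the same plasmid with the conserved region of SLNCR1 alone (2 samples) or with SLNCR1 lacking that region, called delta-conserved (2 samples). All cells grew in DMEM with 10% serum, were transfected with Lipofectamine 2000 at 24 h after seeding and were harvested 48 h after transfection, and poly(A) RNA was sequenced. Transfection was transient and in a single cell line, and the share of cells that took up plasmid is unknown here. The labels do not say whether the paired samples of a group were separate cultures, so p-values measure the spread between these libraries, which may be technical. Genes were ranked by log2 of the SLNCR1 mean over the vector mean, for the 12561 of 56638 entries whose mean normalized count was 50 or more. The rule sets only this filter and the ratio, and all tests below run over whole tables.

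SLNCR1 is a long noncoding RNA transcribed from the LINC00511 locus and studied in melanoma for its link to invasion. Many of the genes described here belong to the circadian clock. In that circuit the CLOCK and BMAL1 proteins (genes CLOCK and ARNTL) bind E-box sequences and switch on period, cryptochrome, REV-ERB and PAR bZIP genes, and the PER and CRY proteins then shut CLOCK and BMAL1 off. The REV-ERB receptors NR1D1 and NR1D2 repress ARNTL, while the PAR bZIP factors DBP, TEF and HLF bind D-box sequences. Many cultured cells carry this circuit, and serum, forskolin or fresh medium shifts its phase.

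The transfected RNA was measured through LINC00511, whose normalized count was 623 and 617 in the vector libraries and 859 and 880 with SLNCR1. The groups did not overlap, and LINC00511 was 1.40-fold higher (limma log2 0.49 ± 0.10 SE, adjusted p = 0.00441). The call was lost in limma without vector library a, at a log2 of 0.50, and with a filter of 1 read in total, at 0.49. Reads are counted over the whole locus, so the plasmid-borne RNA and the cell's own LINC00511 transcripts are summed. In the authors' deposited comparisons with vector, its log2 was 0.49 with SLNCR1, 0.80 with the conserved region alone and 0.69 with delta-conserved. The adjusted p-values of the authors' test were 0.00559, 5.89e-15 and 0.145.

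Assigned reads numbered 12015394 and 11321294 in the vector libraries and 10097194 and 9090649 with SLNCR1. Within a group, a stands for the library with more reads and b for that with fewer, since replicate numbers could not be tied to them. SLNCR1 library b stood apart by transcript length. Over 12047 ranked genes with a known longest transcript, Spearman's rho between that length and the log2 ratio of SLNCR1 library b to library a was -0.579, across genes that share both libraries. The same rho was -0.261 for the vector pair, -0.215 for the conserved pair and 0.0753 for the delta-conserved pair. In the quintile of genes with the longest transcripts, the median log2 against vector was -0.02 for library a and -0.22 for library b, and in the shortest quintile it was 0.07 and 0.21. Some results are therefore also given with SLNCR1 library a alone. A gene named without that value may still rest on library b. The part that transcript length or RNA quality plays in any single change was not tested.

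**Figure D1:**
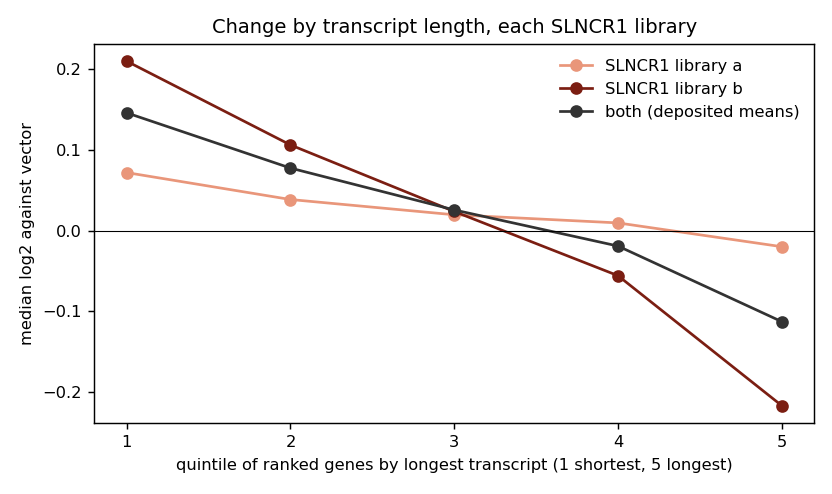
Median log2 against vector (vertical axis) for quintiles of the ranked genes by longest transcript (horizontal axis), for SLNCR1 library a, library b and the deposited means of both. Library b runs from 0.21 in the shortest quintile to -0.22 in the longest, and library a from 0.07 to -0.02.

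Genes at the low end of the ranking moved much further than genes at the high end. The lower tail held 81 genes with a log2 of -1 or less, and the upper tail held 2 genes at 1 or more. At 1% and 99% of the ranking the log2 was -0.84 and 0.35, and its median was 0.02. In the authors' deposited table, 258 of the ranked genes were lower (2.05%) and 13 were higher (0.103%) with an adjusted p under 0.05. Among all 33548 entries with a p in that table the counts were 283 lower (0.844%) and 13 higher (0.0388%). Both SLNCR1 libraries lay below both vector libraries for all 258 of the genes called lower, and above them for all 13 called higher. The same separation held for 3108 and 3920 of all 12561 ranked genes, so it is common without a call.

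A linear model of the recovered single-library values (limma, 16058 genes) called 1190 genes lower (7.41%) and 632 higher (3.94%). Without SLNCR1 library b it called 694 lower and 67 higher, and without vector library a 299 lower and 18 higher. Without SLNCR1 library a the counts were 2358 and 1967, and without vector library b 760 and 750. The number of higher calls thus rests on single libraries far more than the number of lower calls. Of the 258 ranked genes called lower in the authors' deposited table, limma called 257 lower with all libraries, 256 without SLNCR1 library b and 213 without vector library a. Of the 251 of them with a known transcript length, 251 were called lower after the trend on length had been removed from each library.

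**Figure D2:**
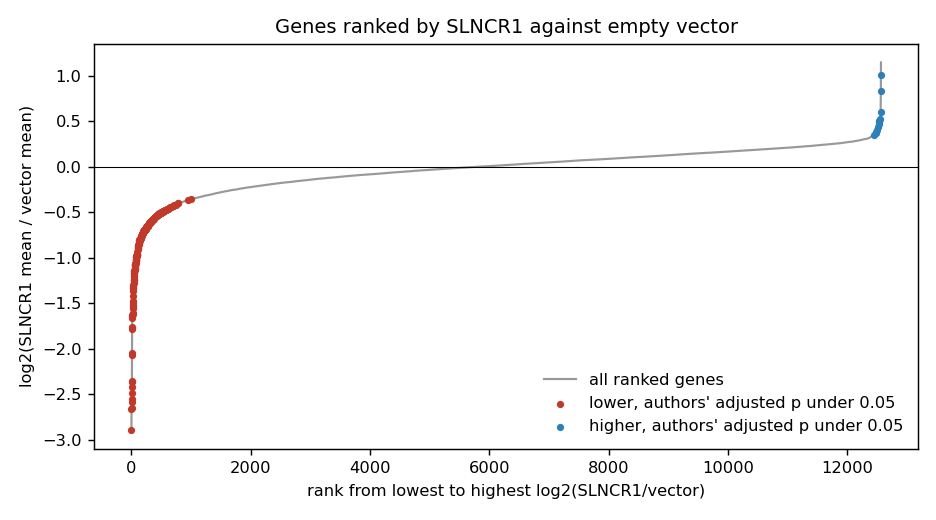
log2 of the SLNCR1 mean over the vector mean (vertical axis) for the 12561 ranked genes in rank order (horizontal axis), with the 258 genes called lower in the authors' deposited table in red and the 13 called higher in blue. The lower tail reaches -2.90 and the upper tail 1.15, and the gene at the top, RRAD, was not called.

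Of the 25 functional lists described, the clock list had the lowest median and the most members that fell. With the authors' deposited table taken as the test, 12 of the 26 clock genes and PAR bZIP factors measured fell, none rose and 14 did not pass. That table called 0.844% of all entries lower and 2.05% of the ranked genes, and 21 of the 26 were ranked. The median log2 of the 26 was -0.56, beside 0.00 over all 26721 tested entries with reads in both groups. The median was -0.48 with SLNCR1 library a alone and -0.63 with library b alone. By limma 13 of the 26 were lower and none higher, also without SLNCR1 library b, and 13 were lower and none higher at an unadjusted p under 0.05 in the deposited table. At that p 3.62% of all its entries were lower and 2.64% higher, and 8.06% and 6.9% of the ranked genes. In bulk RNA, fewer cells expressing a gene and less RNA of it per cell cannot be told apart.

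Promoter windows of 4 of the genes that fell are shown because they hold the E-box or D-box letters through which clock factors are known to act. Each window is RefSeq sequence of build GRCh38.p14, 250 bases before to 50 after a gene start, printed 5′ to 3′ on the gene's strand. They lie at chr17:8152355-8152654 (PER1, minus strand), chr12:26124988-26125287 (BHLHE41, minus strand), chr1:150282304-150282603 (CIART, plus strand, named C1orf51 in the deposited tables) and chr1:7784041-7784340 (PER3, plus strand). Capitals mark the E-box CACGTG in the first 3 windows, where CIART holds 3 copies, and the D-box letters (TTATGTAA or TTACGTAA) in the window of PER3.
PER1: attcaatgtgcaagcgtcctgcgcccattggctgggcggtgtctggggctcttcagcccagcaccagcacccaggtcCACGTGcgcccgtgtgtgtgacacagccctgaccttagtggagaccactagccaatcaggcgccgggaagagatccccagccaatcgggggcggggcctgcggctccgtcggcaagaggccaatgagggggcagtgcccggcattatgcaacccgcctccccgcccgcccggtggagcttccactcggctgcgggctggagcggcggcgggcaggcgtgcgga
BHLHE41: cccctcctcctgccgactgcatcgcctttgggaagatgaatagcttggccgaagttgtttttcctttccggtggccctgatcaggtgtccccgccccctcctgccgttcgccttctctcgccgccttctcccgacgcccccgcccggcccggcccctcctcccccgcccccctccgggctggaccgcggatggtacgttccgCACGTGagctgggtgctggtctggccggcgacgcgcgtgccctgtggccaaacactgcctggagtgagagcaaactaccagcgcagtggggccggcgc
CIART: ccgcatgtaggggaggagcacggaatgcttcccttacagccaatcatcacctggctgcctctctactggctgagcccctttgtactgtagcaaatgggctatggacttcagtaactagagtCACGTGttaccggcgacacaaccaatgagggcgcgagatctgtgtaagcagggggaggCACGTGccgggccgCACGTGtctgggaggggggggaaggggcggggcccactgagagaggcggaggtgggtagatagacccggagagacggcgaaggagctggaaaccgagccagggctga
PER3: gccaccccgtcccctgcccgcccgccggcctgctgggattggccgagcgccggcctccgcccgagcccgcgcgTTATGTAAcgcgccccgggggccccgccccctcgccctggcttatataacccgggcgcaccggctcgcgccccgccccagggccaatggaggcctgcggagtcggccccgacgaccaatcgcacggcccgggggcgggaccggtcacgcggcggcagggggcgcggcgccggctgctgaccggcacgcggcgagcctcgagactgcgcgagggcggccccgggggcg

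The E-box letters, the same on both strands, occurred in 7.26% of all 35116 windows of this length, and D-box letters on either strand in 1.01%. A gene can have more than 1 window, and at least 1 E-box was present for 1240 of the 9729 ranked genes with a window (12.7%). At least 1 D-box was present for 82 of the 9729 (0.843%). Among the clock list, 23 of 26 genes had a window. Of the 12 that fell, 5 held an E-box (BHLHE41, CIART, NR1D2, PER1 and TEF) and 3 a D-box (NR1D2, PER2 and PER3). Of the other 11, BHLHE40 and TIMELESS held an E-box and none held a D-box. Over all ranked genes called lower, 38 of 208 with a window held an E-box (18.3%), beside 12.6% of those not called. These include BHLHE41, NR1D2, PER1 and TEF of the clock list. A D-box was held by 3 of the 208 (1.44%), the same 3 clock genes, beside 0.831% of those not called. Letters of the CRE (TGACGTCA) and of an EGR site (GCGTGGGCG) were also searched. Their shares were 3.85% and 1.92% of the genes called lower, and 3.93% and 1.68% of those not called. The E-box and D-box letters do not contain each other. These are matches of letters in short windows and not measured binding.

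All 3 period genes, which encode the core negative arm of the clock, fell. PER1 stood at 1777 and 2004 normalized counts in the vector libraries and at 592 and 637 with SLNCR1. PER2 went from 481 and 501 to 124 and 111, and PER3 from 268 and 243 to 88.0 and 88.8. For each of the 3 genes both SLNCR1 libraries lay far below both vector libraries. The limma log2 differences were -1.62 ± 0.07 SE for PER1, -2.06 ± 0.10 for PER2 and -1.52 ± 0.13 for PER3, and the largest of their adjusted p-values was 5.67e-07. PER2 fell to 23.9% of its vector mean.

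Cryptochromes, the partners of the PER proteins, fell less. CRY1 stood at 757 and 773 in vector and at 511 and 452 with SLNCR1 (limma log2 -0.67 ± 0.08 SE, adjusted p = 3.32e-05). CRY2 stood at 268 and 286 against 149.9 and 128 (log2 -0.99 ± 0.12 SE, adjusted p = 3.4e-05 by limma). The groups of both genes were apart, as for all 258 ranked genes called lower, with CRY2 near 50.2% of its vector mean and CRY1 at 62.9%.

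The REV-ERB receptors and the repressor BHLHE41 (DEC2, which competes for E-boxes) were also lower. NR1D1 stood at 1615 and 1713 in vector and at 565 and 525 with SLNCR1, a limma log2 of -1.61 ± 0.07 SE (adjusted p = 1.99e-10, the lowest of all genes in this contrast together with PER1). Its paralog NR1D2 moved less, from 1714 and 1648 to 1156 and 991 (log2 -0.65 ± 0.08 SE, adjusted p = 3.63e-05 by limma). BHLHE41 dropped from 573 and 639 to 108 and 109, a log2 of -2.47 ± 0.12 SE (adjusted p = 4.88e-10 by limma). Its paralog BHLHE40 did not pass, at 1162 and 1261 in vector and 1154 and 1133 with SLNCR1. NR1D1 overlaps THRA on the opposite strand and the library kit does not mark strand. THRA stood at 852 and 829 in vector and 828 and 875 with SLNCR1.

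All 3 PAR bZIP factors fell, and HLF fell furthest. DBP went from 643 and 681 to 273 and 296 (limma log2 -1.22 ± 0.10 SE, adjusted p = 3.3e-07). TEF went from 509 and 501 to 197 and 219 (log2 -1.28 ± 0.10 SE, adjusted p = 1.82e-07 by limma). HLF lay below the mean of 50 and outside the ranking, with 67 and 52 reads in vector and 5 and 2 with SLNCR1. Its SLNCR1 mean was 7.21% of its vector mean. NFIL3, the repressor that binds the same D-box sites, did not pass, at 382 and 377 in vector against 313 and 322.

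Clock-associated transcripts outside the core loop followed the same order of libraries. C1orf51 (CIART, also called CHRONO, a repressor of CLOCK and BMAL1) had 101 and 68 reads in vector and 6 and 12 with SLNCR1, 13.6% of the vector mean in normalized counts. CCRN4L (nocturnin, a rhythmic phosphatase) stood at 528 and 595 in vector and 331 and 321 with SLNCR1. ADIRF-AS1, a noncoding transcript, stood at 1324 and 1326 against 386 and 389, a limma log2 of -1.77 ± 0.08 SE. The last was among the 20 largest falls, while CCRN4L was chosen after its values were seen. ADIRF itself, on the strand opposite to ADIRF-AS1, had no assigned reads in any library.

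The activators of the loop did not pass in the authors' deposited table. ARNTL, encoding BMAL1, stood at 264 and 258 in vector and 178 and 189 with SLNCR1, and was lower by limma alone (log2 -0.51 ± 0.11 SE, adjusted p = 0.00723). That limma call was lost without vector library a, at a log2 of -0.49. CLOCK read 956 and 787 against 851 and 614, and the groups overlapped. NPAS2, which can stand in for CLOCK, read 1846 and 1981 against 2123 and 2059, and the casein kinases CSNK1D and CSNK1E, TIMELESS, RORB and ARNTL2 did not pass either. RORA and USP2 were near or below 50 counts and did not pass.

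**Figure D3:**
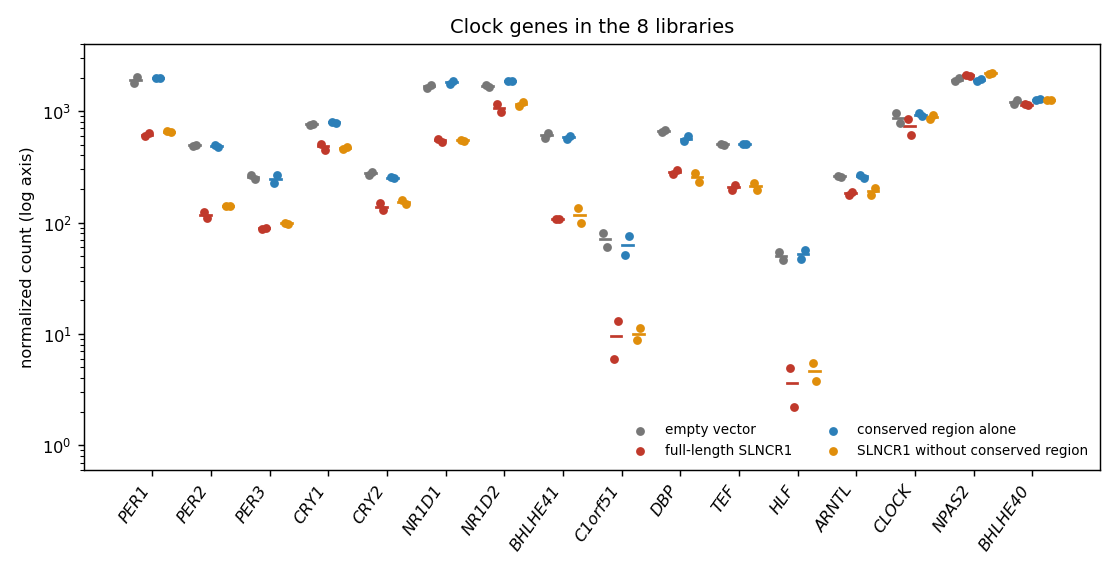
Normalized counts (log axis) of 16 clock genes in the 8 libraries, with points for single libraries and bars for group means, coloured by construct. From PER1 to HLF the SLNCR1 and delta-conserved points lie below the vector and conserved points, whereas those of NPAS2 and BHLHE40 lie close together.

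The same genes were read in the other constructs, which share the vector libraries, so SLNCR1 was set against them directly. PER1 stood at 1972 and 1986 with the conserved region alone and at 656 and 652 with delta-conserved. NR1D1 stood at 1763 and 1853 against 549 and 542, and BHLHE41 at 565 and 601 against 134 and 99.1. Values with SLNCR1 were thus near those with delta-conserved and below those with the conserved region. By limma 15 of the 26 clock genes were lower with SLNCR1 than with the conserved region and none was higher, where 9.47% of 16058 genes were lower and 2.06% higher. Over the 12 clock genes that fell, that log2 difference ran from -3.59 to -0.73. Between SLNCR1 and delta-conserved no clock gene passed, and for the same 12 genes the difference ran from -0.35 (HLF, SE 0.37) to 0.16 (DBP, SE 0.10). At an unadjusted limma p under 0.05, 5 of the 26 clock genes differed between these 2 constructs, beside 1284 of all 16058 genes.

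Across all genes, SLNCR1 and delta-conserved gave no limma call in either direction (0% of 16058). At an unadjusted p under 0.05 the model had 414 genes higher and 870 lower with SLNCR1. The lowest adjusted p was that of FN1, encoding the matrix protein fibronectin, at 0.0706. FN1 read 1207 and 911 with SLNCR1 and 1977 and 1751 with delta-conserved, a limma log2 of -0.83 ± 0.13 SE, and 1010 and 1327 with vector. A missed threshold does not show that these constructs act alike.

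Outside the clock, the largest falls fell on genes of unlike function. NEURL3, a ubiquitin ligase of the neuralized family, stood at 206 and 236 in vector and at 38.0 and 31.8 with SLNCR1. PLA2G4C, a cytosolic phospholipase A2, stood at 169 and 147 against 24.0 and 28.5, and TSPAN2, a tetraspanin, at 165 and 164 against 22.0 and 34.0. Each of them stood at 15.8% to 17.0% of its vector mean, and none of their groups overlapped, as for all 258 ranked genes called lower. INHBE, an inhibin beta chain, went from 95.7 and 111 to 23.0 and 17.5. BEST1, a chloride channel, went from 163 and 125 to 35.0 and 20.8, and ACTN2, a muscle alpha-actinin, from 162 and 152 to 40.0 and 36.2. MMP19, a matrix metalloproteinase, fell from 501 and 433 to 158 and 161 (limma log2 -1.54 ± 0.10 SE, adjusted p = 2.42e-08). With SLNCR1 library a alone the limma log2 was -2.51 for NEURL3, -2.85 for TSPAN2 and -1.56 for MMP19. CD99P1, at 113 and 112 against 30.0 and 36.2, is a pseudogene whose reads may be shared with CD99, which read 713 and 780 against 801 and 890.

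EGR2, a transcription factor of the early growth response family, stood at 197 and 205 in vector and 31.0 and 32.9 with SLNCR1, and EGR1 at 3206 and 3561 against 1455 and 1489. EGR1 was the most abundant of the 10 largest falls with a mean of 500 or more (limma log2 -1.20 ± 0.07 SE, adjusted p = 7.17e-09). The Krüppel-like factors KLF4 and KLF15, chosen after their values were seen, stood at 622 and 700.5 against 419 and 403, and at 181 and 205 against 104 and 85.5. All 4 were lower in both SLNCR1 libraries than in either vector library, as were all 258 ranked genes called lower. The early-response genes ATF3, FOS and JUN, also chosen after their values were seen, did not pass in the authors' deposited table. FOSB, of the FOS family and chosen in the same way, was called lower there (log2 -0.71). Early-response genes were not counted as a list. ATF3 read 1233 and 1298 in vector and 973 and 1014 with SLNCR1, FOS 544 and 580.5 against 590 and 669, and JUN 2203 and 2634 against 2765.5 and 2875. By limma ATF3 was lower (log2 -0.35 ± 0.07 SE, adjusted p = 0.00481).

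Genes that rose were few and rose little. With the authors' deposited table as the test, 13 genes passed, and besides LINC00511 they were IL6, IL8, AKR1C1, LYPD3, NOV, IL24, IL11, SOD2, PMEPA1, DKK1, CD55 and HMGA2. NOV, listed under an older symbol, was named after its value was seen to complete the count. IL6, an inflammatory interleukin, stood at 125 and 117 in vector and 225 and 259.8 with SLNCR1, 2.01-fold in the deposited means. IL8, a neutrophil chemokine, stood at 688 and 696 against 1160.4 and 1304. IL24 read 711 and 700.5 against 988 and 1002, and IL11 782 and 869.9 against 1111 and 1165. For each of these cytokines the lower SLNCR1 library was above the higher vector library, as for all 13 genes called higher.

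The limma log2 was 0.99 ± 0.12 SE for IL6 (adjusted p = 5.58e-05) and 0.83 ± 0.08 for IL8 (adjusted p = 1.61e-06). For IL24 it was 0.50 ± 0.08 and for IL11 0.46 ± 0.07, with limma adjusted p-values of 0.000652 and 0.000511. Related genes chosen after their values were seen did not pass in the authors' deposited table. CXCL2 read 94.9 and 98.8 in vector and 131 and 146 with SLNCR1, CXCL1 606 and 587 against 635 and 733, and CSF2 57.1 and 69.7 against 74.0 and 103. Limma called CXCL2 higher. That call was lost in several alternatives, among them with the vector and SLNCR1 libraries alone (log2 0.51) and with the trend on length removed (0.37). PTGS2, encoding the inducible cyclooxygenase, read 26.5 and 20.3 against 36.0 and 20.8, and its groups overlapped.

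SOD2, the mitochondrial superoxide dismutase, stood at 890.2 and 839.9 in vector and 1133 and 1210.1 with SLNCR1. AKR1C1, an aldo-keto reductase, stood at 176 and 171 against 267 and 259, and its reads may be shared with close paralogs. CD55, which protects cells from complement, went from 1398.5 and 1436 to 1784 and 1884, and DKK1, a secreted Wnt antagonist, from 1003 and 1064 to 1287 and 1409.5. HMGA2, an architectural chromatin protein, went from 2634.5 and 2762 to 3396 and 3456, a limma log2 of 0.34 ± 0.07 SE (adjusted p = 0.00306). DKK1 lost its limma call without vector library a, at 0.34. AKR1C1 and LYPD3 were also higher with SLNCR1 than with the conserved region alone (limma log2 0.65 ± 0.11 and 0.62 ± 0.09 SE, adjusted p = 0.000561 and 0.000231). For IL6 that difference was 0.36 ± 0.12 SE and did not pass (adjusted p = 0.0678 by limma).

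RRAD, a small GTPase, headed the ranking at a log2 of 1.15 and was not called (adjusted p = 0.533 in the authors' deposited table). It read 16.9 and 45.0 in vector and 60.0 and 76.7 with SLNCR1, so the vector libraries differed more from each other than the nearest libraries of the groups. Limma called it higher (log2 1.26 ± 0.33 SE, adjusted p = 0.0235), and the call was lost in 4 alternatives, among them those without vector library a, at 0.59, and without SLNCR1 library b, at 1.08.

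Genes of the NF-kB pathway were found among the falls and among the genes that did not pass. Apart from NFKBIE and IL32, those named here were chosen after their values were seen, and their number is therefore no result. NF-kB factors drive inflammatory genes and also induce their own inhibitors. NFKBIE, encoding the inhibitor IkB-epsilon, stood at 694 and 751 in vector and 345 and 369 with SLNCR1. BIRC3, a ubiquitin ligase of the TNF receptor complex, stood at 662 and 599 against 297 and 281, and the adaptor TRAF1 at 400.5 and 386 against 191 and 206. These 3 genes stood at 49.4%, 45.8% and 50.5% of their vector means, and their groups did not overlap, as for all 258 ranked genes called lower. The deubiquitinase CYLD fell from 859.7 and 790.5 to 509.7 and 502, and the factor RELB from 1354 and 1427 to 949 and 1038. REL read 284 and 244 in vector and 141 and 73.4 with SLNCR1, and the SLNCR1 libraries lay well apart. The limma log2 of REL was -1.36 ± 0.20 SE with both libraries and -0.90 with library a alone. IL32, a cytokine among the 20 largest falls, went from 219 and 221 to 74.0 and 66.9, and the surface protein CD83 from 263 and 240 to 133 and 161. NFKB2, NFKBIB, NFKBIA and TNFAIP3 did not pass in the authors' deposited table. NFKBIA, encoding the inhibitor IkB-alpha, read 664 and 715 in vector and 674 and 719 with SLNCR1, and TNFAIP3, an inhibitor of the pathway, 1431.5 and 1396 against 1415 and 1304. NFKB2 and NFKBIB were lower by limma alone (log2 -0.27 and -0.30, adjusted p = 0.0245 and 0.0196), and both calls were lost without vector library b, at -0.18 and -0.22. Both were also lost with a filter of 1 read in total and with the vector and SLNCR1 libraries alone.

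**Figure D4:**
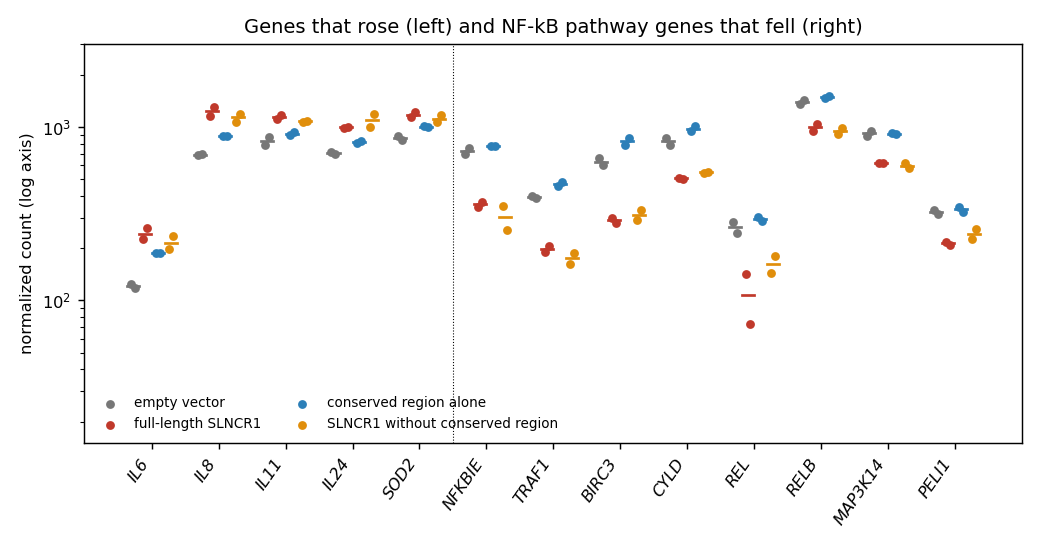
Normalized counts (log axis) in the 8 libraries of 5 genes that rose with SLNCR1, left of the dotted line, and 8 genes that fell, chosen for their link to the NF-kB pathway, right of it, with points for libraries and bars for group means. IL6 lies at 225 and 259.8 with SLNCR1 above 125 and 117 in vector, and NFKBIE at 345 and 369 below 694 and 751.

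BRAF, the kinase whose activated form drives this line, stood at 839.6 and 777 in vector, and 592 and 491 with SLNCR1. With the conserved region alone it read 887 and 844, and with delta-conserved 683 and 638. Its limma log2 against vector was -0.58 ± 0.09 SE (adjusted p = 0.00037), and -0.45 with SLNCR1 library a alone. ABL2, a tyrosine kinase, read 3813.5 and 3743 against 2774.5 and 2198, and NUAK2, a kinase of the AMPK family, 613 and 680.2 against 334 and 303. BRAF and ABL2 were chosen after their values were seen, and NUAK2 was among the 10 largest falls with a mean of 500 or more. Of 34 genes of the PI3K, AKT and FOXO pathway 1 fell and none rose in the authors' deposited table. It was PIK3IP1, an inhibitor of PI3K, with 60 and 54 reads in vector and 9 and 7 with SLNCR1. By limma 10 of the 34 were lower, beside 7.41% of all genes. That count was 8 with the trend on transcript length removed (8.3% of all genes) and 3 without SLNCR1 library b (PIK3IP1, SESN1 and FOXO3). The list's median log2 was -0.19 with both libraries, -0.06 with library a and -0.31 with library b, and the median longest transcript of its members was 6399 bases, beside 3750 over the ranked genes.

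HDAC9, a histone deacetylase chosen after its values were seen, fell from 571 and 578 to 232 and 219 (limma log2 -1.35 ± 0.09 SE, adjusted p = 1.43e-08). TET2, which oxidises methylcytosine and was chosen in the same way, read 601 and 515 against 324 and 242. Of 34 histone demethylases and methyltransferases 1 fell, KDM7A, from 328 and 303 to 224 and 158, where 2.05% of the ranked genes were called lower. In that list limma called 9 lower with all libraries, 6 with the trend on length removed and 4 without SLNCR1 library b, beside 7.41%, 8.3% and 4.3% of all genes. KDM7A lost its limma call without vector library a, at -0.68. Among 34 SR proteins and hnRNPs 2 fell, the splicing repressor PTBP2 from 517 and 505 to 307 and 290.5 and the kinase CLK4 from 391 and 387 to 256 and 274, while the list's median log2 was 0.16. CPEB3 and CPEB4, which bind polyadenylation elements of cytoplasmic mRNAs and were chosen after their values were seen, read 105 and 95.3 against 50.97 and 40.6, and 975 and 970.4 against 664 and 518. Their family member CPEB2 was also lower in the authors' deposited table (log2 -0.69, adjusted p = 0.0061). CPEB1 did not pass, at 61.9 and 60.0 against 56.0 and 41.7. Numbered zinc finger (ZNF) genes had a median log2 of -0.22 over the 421 that were ranked, with 37 called lower (8.79%, beside 2.05% of all ranked genes) and none higher. By limma 117 of them were lower and 1 higher, beside 1060 lower and 630 higher of all 12561 ranked genes. The ZNF median was -0.17 with library a and -0.28 with library b.

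Metabolic genes that fell included CTH, which makes cysteine from cystathionine, at 329 and 303 in vector and 157 and 152 with SLNCR1 (limma log2 -1.03 ± 0.11 SE, adjusted p = 8.12e-06). CHAC1, which degrades glutathione, read 214 and 231 against 118 and 138. These were the 2 members that fell of 25 genes of amino acid synthesis and the ATF4 response, and the list's median log2 was 0.00. By limma 6 of the 25 were lower and none higher, beside 7.41% and 3.94% of all genes. With the trend on transcript length removed 6 were lower and 2 higher, beside 8.3% and 6.52%. Of the 25, 5 were lower and none higher at an unadjusted p under 0.05 in the authors' deposited table. The shares of the ranked genes at that p were 8.06% and 6.9%. PPARGC1A, a coactivator of mitochondrial biogenesis, was the single one that fell of 30 nuclear receptors and coactivators, a list that leaves out NR1D1 and NR1D2, which are counted with the clock genes. It went from 135 and 111 to 45.0 and 26.3. CREBRF, a regulator of the unfolded protein response, went from 745 and 702 to 381 and 304. FLCN, FNIP1 and PRKAB1, which act together around AMPK and were chosen after their values were seen, read 772 and 757 against 526 and 550.2, 829.9 and 771 against 574 and 449, and 930.5 and 915 against 649.6 and 651. The arrestin-domain genes ARRDC3 and ARRDC4, likewise chosen, read 1238.5 and 1217.5 against 849 and 759.6, and 597 and 610.5 against 319 and 375. ARRDC1 and ARRDC2 did not pass, at 797 and 838 against 822 and 899.9, and at 770.4 and 899.9 against 799 and 918.5.

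Other lists held at most 3 members that passed. Of 31 eicosanoid and phospholipase genes, PLA2G4C, ALOXE3 and PLCB4 fell. ALOXE3, an epidermal lipoxygenase, read 158 and 178 against 32.0 and 30.7. ITGAM was the single one to fall of 26 integrin chains, with 93 and 68 reads in vector and 8 and 6 with SLNCR1. NEURL3 was the single one of 29 Notch pathway genes, TSPAN2 of 26 tetraspanins and MXD1, a MAX partner, of 24 ID and bHLH factors, a list that leaves out BHLHE41. DKK1 was the single Wnt pathway gene that rose, of 32. Among receptor tyrosine kinases and ligands (39 tested), BCL2 family (19), autophagy and lysosome genes (36), amino acid transporters (25), aminoacyl-tRNA synthetases (20), SOCS, STAT and JAK genes (27), semaphorins and their receptors (28), serpins (20) and snoRNA host genes (18), none passed. Of these 232 genes, the authors' deposited table had 22 higher and 5 lower with an unadjusted p under 0.05, beside 6.9% and 8.06% of the ranked genes, and limma called 11 higher and 8 lower, beside 3.94% and 7.41%.

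Lists of the proteasome, the mitochondrial ribosome, and tubulins and actins had no call in the authors' deposited table and medians above 0. All 31 proteasome subunits were above 0 on the log2 scale (median 0.21), and so were 39 of 40 mitochondrial ribosome proteins (median 0.17) and 24 of 25 tubulin and actin genes (median 0.24). PSMB2 read 1398.5 and 1509 in vector and 1737 and 1862 with SLNCR1, and TUBB 2173 and 2340.5 against 2663.5 and 2907. By limma 10 proteasome, 6 mitochondrial ribosome and 11 tubulin and actin genes were higher, beside 3.94% of all genes. The counts were 9, 2 and 9 with the trend on transcript length removed (6.52% of all genes), and 1, 0 and 0 without SLNCR1 library b (0.415%). Ranked genes with a mean of 2000 or more had a median log2 of 0.12, and those from 1000 to under 2000 a median of 0.08. Those with a mean under 100 had a median of -0.08. The part that count level plays in the medians of these lists was not tested. Antigen presentation genes had a median of 0.15 over 24 genes, which was 0.06 with library a and 0.24 with library b, and none passed. Over these 4 lists, an unadjusted p under 0.05 in the authors' deposited table was found for 38 of 120 genes with higher values and 4 with lower values, beside 6.9% and 8.06% of the ranked genes.

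**Figure D5:**
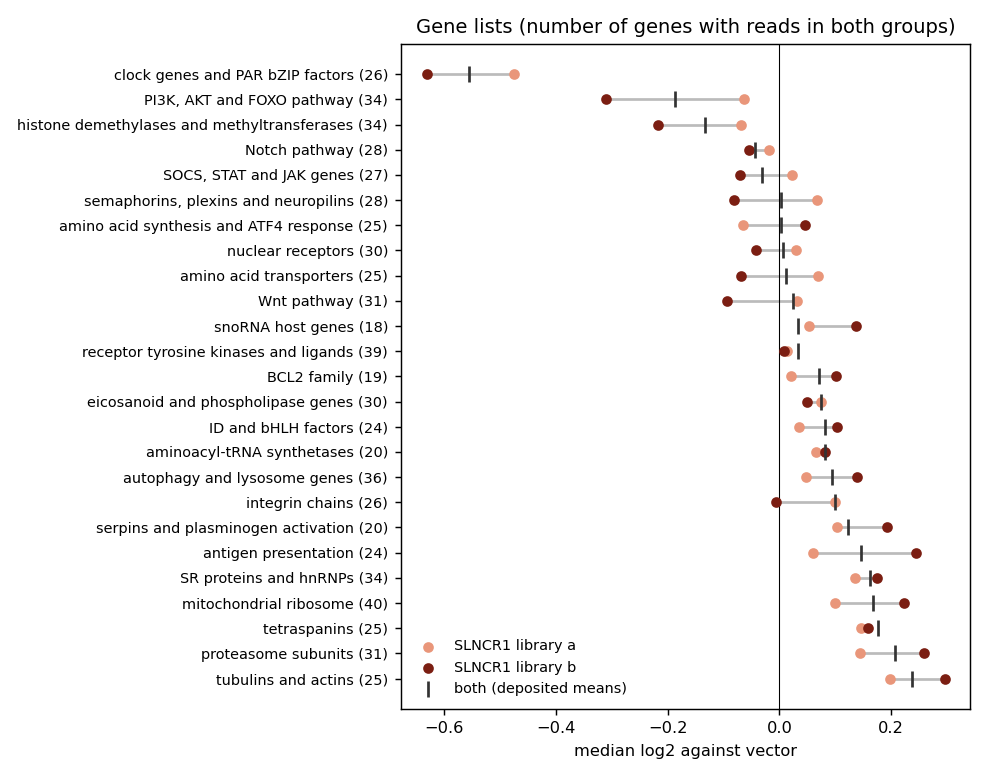
Median log2 against vector (horizontal axis) for 25 gene lists, with SLNCR1 library a and library b as points and the deposited means of both as a bar, and the number of genes with reads in both groups in brackets. The clock list lies furthest left in both libraries, at -0.48 and -0.63, and the PI3K list is at -0.06 in library a and -0.31 in library b.

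Some genes with long transcripts, chosen after their values were seen, differed between the SLNCR1 libraries and did not pass in the authors' deposited table. NFAT5, an osmotic stress factor, read 1880.2 and 1696.5 in vector and 1315 and 796 with SLNCR1, and its longest transcript has 14219 bases. NIPBL, the cohesin loader, read 1513 and 1379.8 against 1092 and 749, and the Wnt regulator APC 1320.5 and 1130.1 against 953 and 648. In all 3 the SLNCR1 libraries were both below vector but far apart from each other. Limma called them lower, at a log2 of -0.80 ± 0.14 SE for NFAT5, -0.68 ± 0.12 for NIPBL and -0.64 ± 0.12 for APC, with adjusted p-values of 0.00149, 0.00125 and 0.00351. Those calls were kept with SLNCR1 library a alone (-0.44, -0.41 and -0.36) and with the trend on length removed, and lost without vector library a (-0.72, -0.60 and -0.52). The calls of NFAT5 and APC were also lost with robust variances, and that of APC with a filter of 1 read in total. AHNAK, with a transcript of 18787 bases, read 12548 and 13284 in vector, 14188 in SLNCR1 library a and 10742 in library b, so the libraries lay on opposite sides of vector. PRKDC did the same, at 8483 and 8654 in vector and 9366 and 7103 with SLNCR1. Neither was called by limma.

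The cells' identity was checked against marker lists. The neural crest and melanocyte factors SOX10 and MITF were present at 2919 and 3224, and 729 and 693, normalized counts in vector, and the melanoma surface proteoglycan CSPG4 at 5460 and 6151. The pigment enzymes TYR and DCT were at 0 to 2.65 in these 4 libraries, and TYRP1 at 3.29 to 11.5, so defining pigment markers were near 0. None of the 15 melanocyte and melanoma markers passed in the authors' deposited table, where 2 were higher at an unadjusted p under 0.05, and limma called SOX10 higher. Summed leukocyte markers were 101 to 141 normalized counts per library, with CD3E and MS4A1 at 0 in all 4, and endothelial markers 376 to 413, with PECAM1 at 0. Keratinocyte markers summed to 857 to 1041, with KRT1, DSG3 and LOR at 0, and fibroblast markers to 1470 to 1605. No marker of these 4 other cell types passed there or by limma, and 1 of 33 was higher at an unadjusted p under 0.05 in the authors' deposited table.

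At the limit of 50 that the ranking used, TCHH lay just outside, with a mean of 49.998 and a log2 of 0.46, and LYNX1 just inside, with 50.018 and -0.24. Those means carry the deposited table's own scaling. On the scaling over 8 libraries they read 36.2 and 43.2 in vector and 59.0 and 50.4 with SLNCR1, and 53.1 and 49.4 against 47.0 and 39.5, and neither passed.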

How the data were processed

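RNA of 8 samples in 4 groups was grouped by the labels. The deposited data were 3 tables, 1 for each construct against vector. Build hg19, STAR, featureCounts and DESeq are listed in the submitters' processing notes, with neither versions nor annotation given in the sources used here. Each deposited table holds a signal, which per the file headers is the authors' group mean of size-factor-scaled reads. The fold change is the ratio of those means as the authors deposited it, and p-values, raw and adjusted, come from the authors' test. The library kit does not mark strand, per the labels' protocols. Of the entries, 28 identifiers had become dates, and 12017 of the 12561 ranked entries matched a reference symbol directly.

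Each group mean is a sum of whole reads of 2 libraries over 2 steps, which allowed single-library reads to be solved, with 1 solution for 99.981% of genes with the conserved region and 100% in the other groups. Reads were scaled by median-of-ratios over 8 libraries and tested with limma 3.58.1 in R 4.3.3 on log2(normalized count + 1), which understates changes of low genes, for 16058 genes with a mean of 10 or more, in a model of 4 groups with Benjamini-Hochberg adjustment. In a test on simulated data for SLNCR1 against vector, with 16057 genes, limma recovered 49.3% of the genes altered 1.5-fold and 97% of those altered 2-fold, and 5 of its 169 calls were false. The simulated counts had the same dispersion for every gene and no trend on transcript length. These rates therefore need not hold for the real libraries. Count models were not used, since the files hold means. List medians for single libraries use log2((count + 1)/(vector mean + 1)). Calls are those of the authors' adjusted p under 0.05 unless limma is named.

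Genes could be named if they were LINC00511, among the 20 largest called changes each way of ranked genes with a symbol, among the 10 largest each way with a mean of 500 or more, among up to 6 called members of a list, in the clock or marker lists, or next to the mean of 50; others were chosen after their values were seen, among them the uncalled list members named. The rule, the 30 lists and these genes were chosen with earlier results of these data known. Longest transcripts were taken from GENCODE release 29, matched by symbol for 95.9% of ranked genes. Some list members are counted but not reported here by name. Promoters are RefSeq windows of GRCh38.p14. Alternatives were other thresholds, pseudocounts, filters, scalings and left-out libraries, and, chosen after seeing the data, removal of length and GC trends and robust variances. Python 3.11.15 with pandas 2.3.3, numpy 2.4.6, scipy 1.17.1 and matplotlib 3.10.9 was used.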

Additional observations from a re-analysis of the deposited data

How the results depend on the processing

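With 2 libraries a group, counts of calls depended on the settings. Over the limma log2 changes of 147 single genes in up to 14 alternatives (2047 values), none that was called reversed, 56 values of 21 genes lost the call and 27 gained it, and 34 values of genes not called changed sign, those of AHNAK and PRKDC without SLNCR1 library b among them. At an adjusted p under 0.01 in the authors' deposited table, the higher genes numbered 5, beside 13 at 0.05, and the lower count stayed within 1.5 times at 0.01 and 0.1 and on adjusting again over the ranked genes. With limma in place of the authors' test, 632 genes were higher and 1190 lower. Limma itself called 32 higher and 458 lower with a filter of 1 read in total, 54 higher and 783 lower from the vector and SLNCR1 libraries alone, and 277 higher with trimmed-mean scaling. Removing length and GC trends together gave 1412 higher. Leaving out each vector or SLNCR1 library in turn gave 18 to 1967 higher and 299 to 2358 lower; with 1 SLNCR1 or vector library the lone sample is assumed to vary like the other groups. The share of higher calls was 34.7%, 16.6% with trimmed-mean scaling and 44.0% with length removed. Other alternatives kept both counts within 1.5 times. The causes were not tested. No paired analysis was possible because the recovered libraries carry no replicate number.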

Other observations

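A further 5 genes, chosen after their values were seen, were lower in the authors' deposited table. SYP, a synaptic vesicle protein, read 78.8 and 67.9 normalized counts in vector and 16.0 and 35.1 with SLNCR1 (limma log2 -1.58 ± 0.29 SE). BSN and PCLO, paired scaffolds of the presynaptic zone, read 148 and 169 against 64.0 and 75.6, and 996 and 914 against 592 and 454. CHGB, a secretory granule protein, read 216 and 167 against 77.0 and 71.2, and RYR2, a calcium release channel, 500.2 and 444 against 319 and 232. The groups did not overlap for any of these 5 genes, which holds for all 258 ranked genes called lower. SYP and RYR2 lost their limma call without vector library a, at -1.47 and -0.70. PCLO stood at -0.88 with both SLNCR1 libraries and at -0.69 with library a alone on the limma log2 scale. SNAP25, SYT1 and UNC13A, which act in vesicle release and were chosen in the same way, did not pass in the authors' deposited table, at 113 and 96.2 against 69.0 and 104, 203 and 206 against 172 and 139, and 243 and 210.0 against 181 and 138. Limma called UNC13A lower, and that call was lost in several alternatives, among them with the trend on length removed (log2 -0.33).

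PPM1D, a phosphatase that turns off p53 signalling, stood at 806.6 and 805.5 in vector and 496 and 443 with SLNCR1 (limma log2 -0.78 ± 0.08 SE, adjusted p = 4.71e-06). LATS2, a Hippo pathway kinase, read 1122 and 1219 against 827 and 643. SFTA1P, a noncoding transcript, read 86.0 and 87.3 against 38.0 and 30.7. These 3 genes, chosen after their values were seen, were lower in both SLNCR1 libraries than in either vector library. That holds for all 258 ranked genes called lower.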
